A study of Rattus norvegicus with 15 samples.

Results

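A set of 10 genes that mark the alveolar epithelial type 1 (AT1) cell were followed while rat alveolar type 2 (AT2) cells were kept in culture. The members were Aqp5, Pdpn, Akap5, Clic5, Spock2, Col4a3, Hopx, Ager, Rtkn2 and Emp2, found by their symbol in the annotation of the array. All 10 of the 10 listed genes had a probe, 1 probe each, among 13337 genes named on the array. RNA from AT2 cells of male rats was hybridized at isolation (D0) and after 2, 4, 6 and 8 days of differentiation (D2, D4, D6 and D8), with no agent added, 3 arrays per day and 15 in all. D0 stands for the purified AT2 cell, D8 for the AT1-like cell, and the days between for intermediate cells. No day was a culture of AT1 cells taken from the lung, so the levels of these genes in AT1 cells of the animal were not measured.

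AT1 cells are the thin, wide cells that cover most of the gas-exchange surface of the lung, and AT2 cells are the cuboidal cells that make surfactant and can give rise to AT1 cells. The transition flattens the cell, spreads its membrane and lays down a basement membrane shared with the capillary. The markers reflect these roles. Aqp5 encodes a water channel, Pdpn the mucin-like membrane glycoprotein podoplanin, Ager the receptor for advanced glycation end products and Emp2 a tetraspan membrane protein. Akap5 encodes a scaffold that holds protein kinase A at the membrane, and Clic5 a chloride intracellular channel protein linked to the cortical actin cytoskeleton. Col4a3 encodes a chain of type IV collagen and Spock2 a secreted proteoglycan, testican-2. Hopx encodes an atypical homeodomain protein that does not bind DNA. Rtkn2 is used as a marker of AT1 cells.

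Slide 1 carried 2 arrays of every day (replicates 1 and 2), slide 2 the third array of D2 and D4, and slide 3 the third array of D0, D6 and D8. The labels do not say which cell purification each array came from, so effects of slide and of purification cannot be told apart, and p-values measure only the spread between these arrays. Between 7615 and 9787 of 22523 probes were detected per array (detection p under 0.01 against the negative controls of that array), with 7615 to 8387 on slide 3 and 8819 to 9787 on slide 1. Values below are signals normalized by variance stabilization (VSN) on the log2 scale. They are compared for 1 probe between days, not between probes.

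Of the 10 markers, 7 were detected on all 15 arrays, D0 included. Akap5 was detected on 13 arrays, of which 1 was from D0, and Col4a3 on 12 arrays, none from D0. Rtkn2 was detected on none. In all, 9 members were detected on at least 3 arrays. Freshly isolated cells already gave a signal above the negative controls for Aqp5, Pdpn, Clic5, Spock2, Hopx, Ager and Emp2.

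Between D0 and D8, 8 of the 10 markers rose and none fell (limma, Benjamini-Hochberg adjusted p at most 0.05 over all probes). The background was 9.91% of all probes higher, and 20.9% of those detected on at least 3 arrays. The median change of the 10 markers was 2.59 on the log2 scale, against -0.02 over all probes. At D8 all 3 arrays lay above all 3 of D0 for the same 8 genes, whereas 15.6% of all probes were separated in this way. Already at D2, 7 markers were higher (background 10.3%), and 1 more, Spock2, rose between D2 and D4. The same 8 were higher than D0 at D4 (background 10.9%) and at D6 (background 10.7%). From D2 to D8 the test called 2, Spock2 and Col4a3 (background 1.16%). Hopx and Rtkn2 were not called in any comparison of days in this fit. In these bulk samples, more cells of a type and more RNA per cell cannot be told apart.

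**Figure D1:**
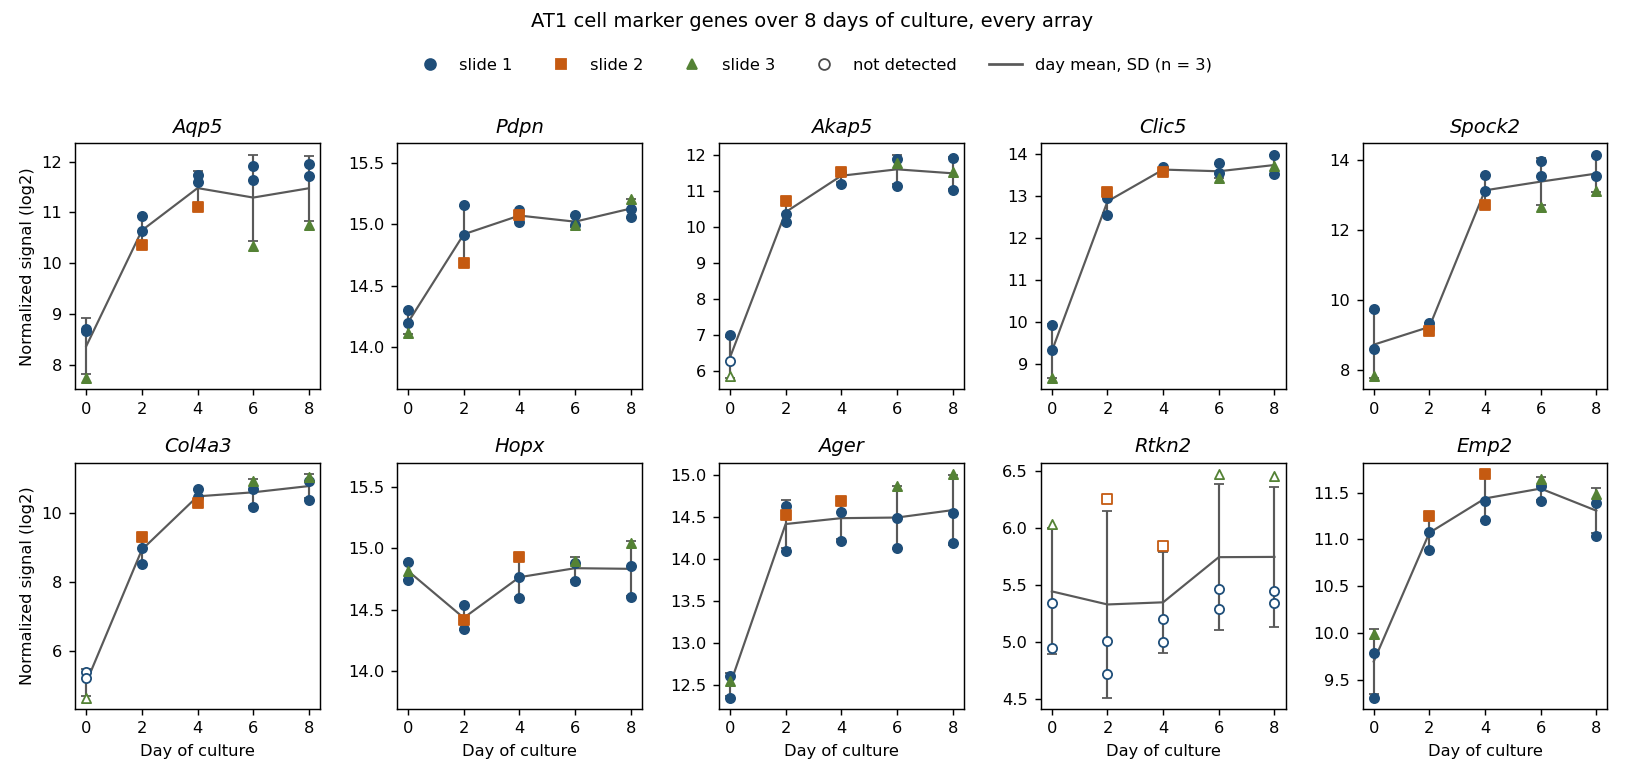
Normalized signal (log2) of each AT1 marker against day of culture, 1 panel per gene with its own axis; symbols are single arrays by slide, open symbols arrays on which the probe was not detected, and lines join day means with SD (n = 3). Of the panels, 7 climb by D2, Spock2 stays near its D0 level until D2 and stands above 12.6 from D4, Hopx stays between 14.3 and 15.1, and Rtkn2 is not detected.

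Of the membrane markers, Aqp5 rose most between D0 and D8. Its signal was 8.67, 8.71 and 7.75 on replicates 1 to 3 of D0. It was 10.64, 10.94 and 10.37 at D2 and 11.74, 11.59 and 11.10 at D4. The values were 11.91, 11.63 and 10.33 at D6 and 11.72, 11.95 and 10.75 at D8. Every later array lay above every D0 array, and the array outside slide 1 was the lowest of its day on all 5 days. The change from D0 to D8 was 3.10 (SE 0.42, limma adjusted p = 9.28e-05), or 8.57-fold, and 73.3% of it had been reached at D2.

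Ager stood at 12.35, 12.61 and 12.54 on the 3 arrays of D0, and at 14.09, 14.62 and 14.52 on those of D2. From there it did not move beyond its spread, with 14.21, 14.55 and 14.69 at D4, 14.12, 14.48 and 14.86 at D6, and 14.18, 14.54 and 15.01 at D8. The first 2 days brought 1.91 (SE 0.26, limma adjusted p = 9.89e-05) of the 2.08 gained by D8 (SE 0.26, limma adjusted p = 4.48e-05). The change from D2 to D8 was 0.17, with a 95% confidence interval of -0.39 to 0.72.

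Emp2 lay between 9.31 and 9.99 at D0, between 10.89 and 11.25 at D2 and between 11.04 and 11.70 on the later days. It rose by 1.61 from D0 to D8 (SE 0.22, limma adjusted p = 0.000114), and its highest day mean was that of D6, 11.54 ± 0.12 (SD, n = 3). The 0.24 by which D8 was below D6 was within the spread (95% confidence interval of D8 minus D6, -0.72 to 0.24).

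Pdpn, the classical AT1 antigen of the rat, gave a strong signal from the start. It stood at 14.30, 14.19 and 14.11 at D0, at 14.91, 15.15 and 14.69 at D2, and between 14.99 and 15.21 on the 9 later arrays. Its rise to D8 was 0.92 (SE 0.17, limma adjusted p = 0.00137), or 1.90-fold, the smallest among the 8 markers that rose. The brightest Pdpn signal reached 98.0% of the highest signal on its array. Whether the top of the signal range limited the change was not tested. Ager and Hopx reached 79.8% and 79.1%, and the other members 45.6% or less. The Pdpn rise by D2, 0.72 (SE 0.17, limma adjusted p = 0.0084), was lost when only the arrays of D0 and D2 were fitted (adjusted p = 0.113).

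The scaffold and cytoskeletal markers had the steepest early rise among the markers with any detected D0 array. Clic5 was 9.32, 9.93 and 8.66 at D0, 12.56, 12.96 and 13.09 at D2, and between 13.44 and 13.98 on every later array. It gained 3.56 by D2 (SE 0.28, limma adjusted p = 6.09e-07) and 4.43 by D8 (SE 0.28, limma adjusted p = 5.93e-08). Akap5 was 6.28, 6.98 and 5.85 at D0, where only replicate 2 was detected, and 10.14, 10.36 and 10.72 at D2. Between D4 and D8 it lay between 11.02 and 11.91. Its change was 4.04 by D2 (SE 0.32, limma adjusted p = 6.49e-07) and 5.12 by D8 (SE 0.32, limma adjusted p = 5.5e-08). With 2 of its D0 arrays below detection, Akap5 had sizes of change that depended on the normalization, and they were 2.93 and 3.97 with the authors' values and 2.81 and 3.78 with quantile normalization. For both genes all 3 arrays of D4 were above all 3 of D2, which was so for 6 of the 10 markers and 9.46% of all probes. The further gains of 1.01 for Akap5 and 0.76 for Clic5 did not pass the adjusted test (limma adjusted p = 0.189 and 0.312).

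Of the matrix genes, Col4a3 was not detected on any D0 array and was 8.53, 8.97 and 9.30 at D2. It was 10.46, 10.69 and 10.29 at D4, 10.16, 10.70 and 10.92 at D6 and 10.38, 10.91 and 11.04 at D8. Against the lowest signal detected on each D0 array, Col4a3 was at least 4.73-fold higher at D2 and at least 16.9-fold higher at D8 with VSN values. These bounds depended on the normalization, at 2.85 and 8.94 with the authors' values and 2.58 and 7.72 with quantile normalization, the smallest at each day among the normalizations tried. The limma fit used the D0 signals as measured, not the bounds, and gave an adjusted p of 4.04e-07 at D2 and 8.78e-09 at D8. Here a fold against a day without detection compares the mean of the brighter day with the mean of these detection floors. A further rise of 1.54 came between D2 and D4 (SE 0.29, limma adjusted p = 0.0147). That second rise lost its call without replicate 1 or 2 of D2 or replicate 1 or 2 of D4 (limma adjusted p = 0.0857, 0.0547, 0.0676 and 0.0941 in this order), and when only those days were fitted (adjusted p = 0.0556).

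Spock2 was the exception in timing. At D0 it was 8.60, 9.74 and 7.83, and at D2 it was 9.21, 9.35 and 9.13. The D2 arrays lay inside the D0 range, and the difference of 0.51 (95% confidence interval -0.45 to 1.46) did not pass the test (limma adjusted p = 0.548). At D4 it was 13.11, 13.56 and 12.73, at D6 13.54, 13.96 and 12.65, and at D8 13.56, 14.16 and 13.13. No array of D4 or later overlapped those of D0 or D2, and the array outside slide 1 was again the lowest of each day. The step from D2 to D4 was 3.91 (SE 0.44, limma adjusted p = 0.000519) and the total by D8 was 4.89 (SE 0.44, limma adjusted p = 2.13e-06). Across all probes only 0.755% were called higher in that step. Among the 10 markers it was Spock2 and Col4a3.

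With VSN values Hopx was not called above its D0 level on any day. It was 14.89, 14.74 and 14.82 at D0 and 14.34, 14.54 and 14.42 at D2, so that all D2 arrays lay below all D0 arrays. It was 14.60, 14.77 and 14.93 at D4, 14.73, 14.88 and 14.90 at D6 and 14.60, 14.85 and 15.04 at D8, each day overlapping D0. The change from D0 to D8 was 0.02 (95% confidence interval -0.37 to 0.40, limma adjusted p = 0.976), an interval that leaves room for a change of up to 0.40. The D2 value was -0.38 against D0 (SE 0.18, limma adjusted p = 0.186), and its size depended on the scaling. It was -0.31 with the authors' normalized values, -0.13 with quantile normalization and 0.03 with scaling to a common median. With VSN values and a trended, robust variance prior it was called lower (adjusted p = 0.0401). With quantile normalization Hopx was called higher than D0 at D4, by 0.32 (limma adjusted p = 0.0415), and at D6, by 0.36 (adjusted p = 0.0201), and not at D8, at 0.28 (adjusted p = 0.0737). The D6 value was 0.355 with neqc (limma adjusted p = 0.0505) and 0.34 with scaling to a common median (adjusted p = 0.149). It was 0.05 with the authors' values (adjusted p = 0.914). Whether Hopx rose by D6 thus depended on the normalization.

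Rtkn2 was below detection on all 15 arrays, with normalized values between 4.72 and 6.48 that carry no order. A change in Rtkn2 was therefore not detectable with this probe.

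The timing was set out by contrasts and by the day on which the midpoint of the rise was passed. In the contrast that takes the change from D0 to D2 minus the change from D2 to D8, 4 markers were positive, Akap5 at 2.96 (SE 0.55, limma adjusted p = 0.00305), Clic5 at 2.70 (SE 0.48, adjusted p = 0.00226), Col4a3 at 2.01 (SE 0.49, adjusted p = 0.0185) and Ager at 1.75 (SE 0.45, adjusted p = 0.0238). Among all probes 4.83% were positive and 4.64% negative in this contrast. Spock2 was the marker with a negative value, -3.88 (SE 0.77, limma adjusted p = 0.0049), so most of its change came after D2. Aqp5 at 1.44, Emp2 at 1.14 and Pdpn at 0.51 had positive values that did not pass the test. With slide as a term Aqp5 and Emp2 passed (limma adjusted p = 0.0161 and 0.0187), and with slide as a random block Emp2 did (adjusted p = 0.0346). Pdpn passed with neqc normalization, at 1.04 (limma adjusted p = 0.00052), and with quantile normalization, at 1.05 (adjusted p = 2.58e-05). The Col4a3 value rests on a D0 level below detection, and with undetected signals raised to the lowest detected one it was 0.40 (limma adjusted p = 0.411). The Col4a3 call was also lost without replicate 2 or replicate 3 of D2 (limma adjusted p = 0.0772 and 0.107). The Ager call was lost without replicate 2 or replicate 3 of D2 (limma adjusted p = 0.124 and 0.0942), and with only the days compared (adjusted p = 0.0575).

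**Figure D2:**
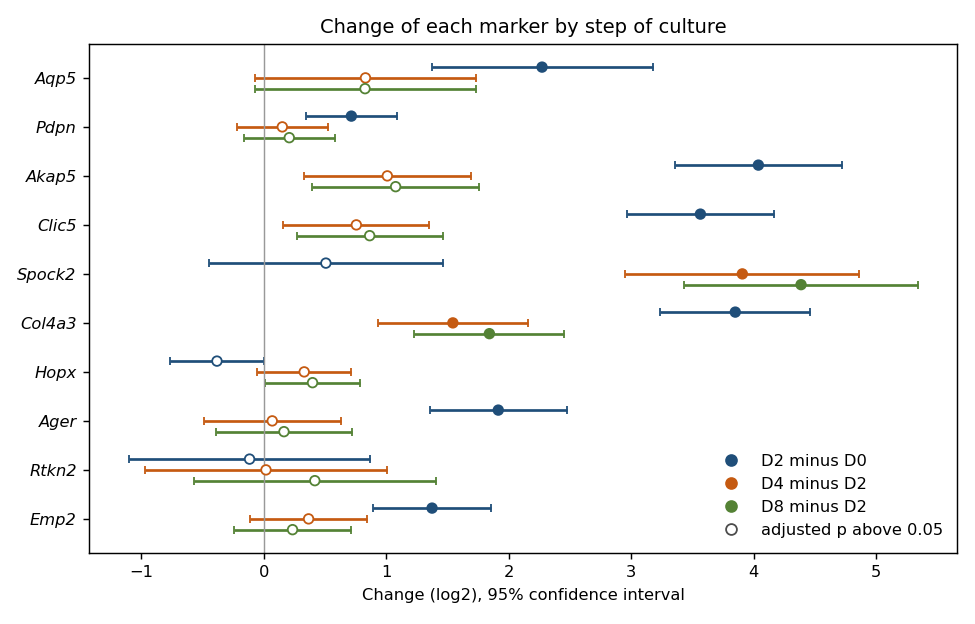
Change of each AT1 marker on the log2 scale for D2 minus D0, D4 minus D2 and D8 minus D2, with 95% confidence intervals from limma; open symbols did not pass an adjusted p of 0.05. Spock2 has its change of 3.91 between D2 and D4, while the other risers have most of theirs between D0 and D2; the D0 level of Col4a3 is below detection, so its first step is a value without a measured start.

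The day of the midpoint was read where straight lines between day means crossed the midpoint of the D0 and D8 means. It was 1.09 for Ager, 1.17 for Emp2, 1.24 for Clic5, 1.27 for Akap5, 1.29 for Pdpn, 1.36 for Aqp5, 1.48 for Col4a3 and 2.99 for Spock2. The standard errors from leaving out single arrays ran from 0.072 for Clic5 to 0.261 for Pdpn. Since no sample was taken between D0 and D2, the first 7 values are interpolated within a single interval. Neighbours from Ager to Col4a3 differed by 0.02 to 0.11 day, less than the standard error of each difference, so the order of neighbours was not resolved. Col4a3 followed Ager by 0.39 day (SE 0.10), Clic5 by 0.24 (SE 0.05) and Akap5 by 0.21 (SE 0.06). These gaps rest on D0 levels of Col4a3, and in part of Akap5, that were below detection. With undetected signals raised to the lowest detected they were 0.74 (SE 0.15), 0.58 (SE 0.17) and 0.52 (SE 0.14). Aqp5 followed Ager by 0.28 (SE 0.30), which was not resolved. Spock2 followed Col4a3 by 1.51 days (SE 0.19), or by 1.17 (SE 0.30) with undetected signals raised.

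The share of the change from D0 to D8 that was in place at D2 showed the same spread, from 92.0% for Ager and 85.4% for Emp2 to 67.6% for Col4a3 and 10.4% for Spock2. By D4 the share was between 90.2% and 108.1% for all 8 genes. No marker was called between D4 and D6 or between D6 and D8 (limma, adjusted p at most 0.05), where 0% of all probes were called higher. An unadjusted limma p under 0.05 was found for 0 of the 10 markers in either step, against 434 and 435 of all 22523 probes.

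**Figure D3:**
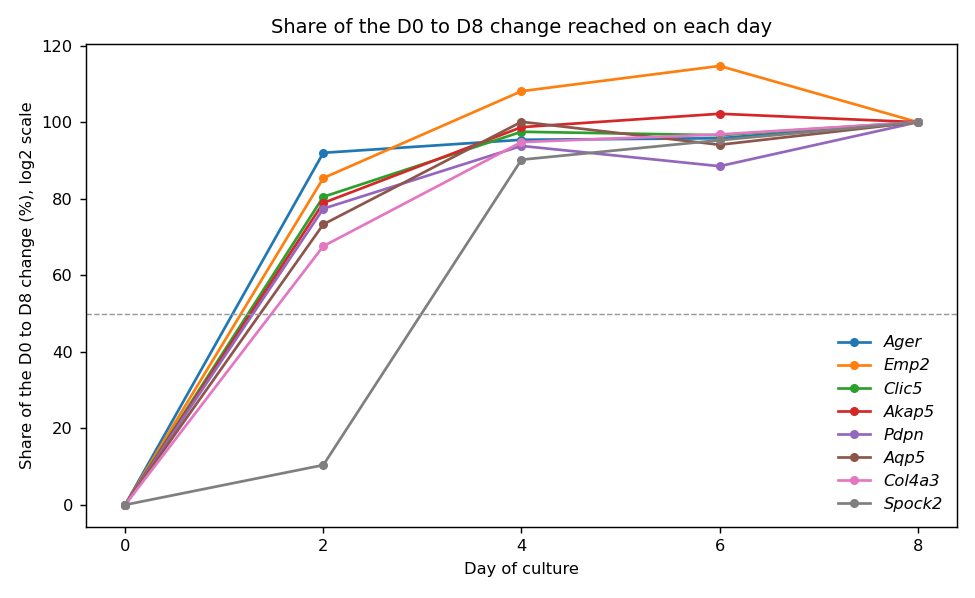
Share of the D0 to D8 change, computed from day means on the log2 scale, reached by each of the 8 rising markers on each day of culture (n = 3 arrays per day); the dashed line marks 50%. Of the lines, 7 pass 50% before D2, between 67.6% and 92.0% at D2, and Spock2 is at 10.4% at D2 and 90.2% at D4.

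On raw signals, which are linear and not normalized between arrays, the midpoint came at 0.83 day for Ager and Pdpn, 0.85 for Emp2, 1.44 for Clic5, 1.63 for Aqp5, 1.68 for Akap5, 2.43 for Col4a3 and 3.20 for Spock2. Col4a3 thus passed its midpoint after D2 on raw signals. With undetected signals raised to the lowest detected signal of their array it passed at 1.82 (SE 0.21), and with the authors' normalized values at 1.79. Spock2 was the last of the 8 under every setting for which a midpoint was computed.

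**Figure D4:**
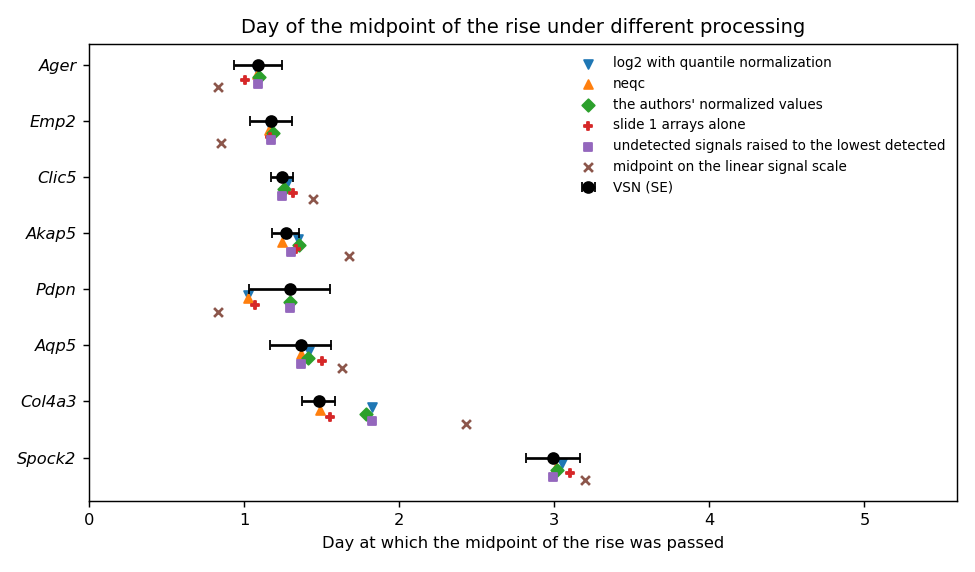
Day of the midpoint of the rise for the 8 rising markers with VSN values (black, bars are the jackknife SE over arrays) and under other processing (coloured symbols). In the settings drawn, Spock2 lies between 2.99 and 3.20 and Col4a3 between 1.48 and 2.43, while the other 6 lie at 1.68 or less.

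To show the regions next to the start of markers with early and late timing, promoters (250 bases before to 50 after the annotated start) were taken from RefSeq, rat build GRCr8, which matched 10 of 10 members. They were searched on both strands for AGGTCA, a site core of nuclear receptors, GGAATG, the core bound by TEAD factors, and TGANTCA, bound by AP-1. The matches did not overlap each other. AGGTCA was found in 2 member promoters, Aqp5 and Pdpn, TGANTCA in 1, Emp2, and GGAATG in none, where 16.2%, 7.3% and 14.2% of 33469 promoters of this length held them. The 3 promoters with a match and that of the late marker Spock2, which had none, are shown, with matches in capitals. Aqp5 is at chr7:132601278-132601577, plus strand, Pdpn at chr5:160918910-160919209, minus strand, Emp2 at chr10:5866619-5866918, plus strand and Spock2 at chr20:28580012-28580311, plus strand.
Aqp5: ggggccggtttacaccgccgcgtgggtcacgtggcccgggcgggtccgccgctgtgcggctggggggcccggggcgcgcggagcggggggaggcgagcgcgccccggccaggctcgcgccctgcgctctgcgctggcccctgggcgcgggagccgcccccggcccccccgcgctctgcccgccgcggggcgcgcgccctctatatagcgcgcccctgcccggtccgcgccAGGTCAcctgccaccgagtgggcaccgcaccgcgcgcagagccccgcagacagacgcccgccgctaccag
Pdpn: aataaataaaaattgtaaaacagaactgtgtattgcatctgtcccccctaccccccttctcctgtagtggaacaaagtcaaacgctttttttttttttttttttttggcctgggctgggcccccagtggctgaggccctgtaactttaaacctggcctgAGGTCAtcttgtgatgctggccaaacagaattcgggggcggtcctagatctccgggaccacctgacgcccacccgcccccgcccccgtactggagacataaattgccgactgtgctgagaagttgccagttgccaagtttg
Emp2: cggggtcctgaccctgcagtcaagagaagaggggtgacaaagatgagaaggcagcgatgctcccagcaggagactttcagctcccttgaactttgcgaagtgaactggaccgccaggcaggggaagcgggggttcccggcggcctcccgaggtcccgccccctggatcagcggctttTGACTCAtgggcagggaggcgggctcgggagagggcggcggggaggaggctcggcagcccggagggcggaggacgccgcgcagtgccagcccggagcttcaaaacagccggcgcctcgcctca
Spock2: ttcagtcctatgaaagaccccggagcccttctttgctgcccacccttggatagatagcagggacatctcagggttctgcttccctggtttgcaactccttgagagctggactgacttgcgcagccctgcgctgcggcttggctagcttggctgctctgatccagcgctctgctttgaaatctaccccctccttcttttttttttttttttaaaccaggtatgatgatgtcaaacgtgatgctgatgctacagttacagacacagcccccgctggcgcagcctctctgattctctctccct
The Aqp5 match began at -20 from the start, that of Pdpn at -91 and that of Emp2 at -73. These are matches of letters, and binding was not measured on the arrays.

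Slide was a second source of variation. In a fit with slide group as a term, 36.2% of all probes differed between slides 2 and 3 and slide 1 (limma adjusted p at most 0.05). Aqp5 was lower on slides 2 and 3 by 0.89 (SE 0.14, adjusted p = 0.000528) and Spock2 by 0.79 (SE 0.21, adjusted p = 0.0104), and the undetected Rtkn2 probe was higher by 1.04. The other 7 markers were not called, with Emp2 at 0.31 (adjusted p = 0.0535) and Ager at 0.35 (adjusted p = 0.067). The rises were present within slides. From D0 to D8 Aqp5 gained 3.15 on slide 1 and 3.01 on slide 3, Spock2 4.69 and 5.30, Akap5 4.83 and 5.68, Clic5 4.12 and 5.05, Ager 1.89 and 2.47, Emp2 1.67 and 1.499, and Pdpn 0.84 and 1.09. Hopx was -0.09 on slide 1 and 0.23 on slide 3. From D2 to D4 Spock2 gained 4.06 on slide 1 and 3.60 on slide 2, and Col4a3 1.82 and 0.99. With slide as a term, Aqp5 was also called higher from D2 to D4, at 0.83 (limma adjusted p = 0.0453).

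Over the 15 arrays the rising markers followed each other closely, as a description, since all points share the day and the slide. Akap5 and Clic5 had the highest Pearson correlation of any pair, 0.99, and each was the other's closest match among 7465 genes detected on at least 3 arrays. Akap5 and Col4a3 were at 0.99 as well. Agrn, which encodes the basement membrane proteoglycan agrin, was among the 3 genes most like both, at 0.99. Spock2 correlated less with the other risers, from 0.64 with Ager to 0.84 with Col4a3, and its own closest genes were Nxnl2 at 0.97, Rarres1 at 0.97 and Eif4g3 at 0.97. Aqp5 was closest to Plod3 at 0.99, Lrp4 at 0.99 and Ripor1 at 0.98. Ager was closest to Exoc7 at 0.99, Pamr1 at 0.98 and Capn2 at 0.98, Emp2 to Pmp22, of the same tetraspan family, at 0.99, and Pdpn to Dag1, which encodes dystroglycan, at 0.98. Hopx had correlations between -0.11 and 0.39 with the 8 risers and was closest to Myo1e, an unconventional myosin, at 0.91.

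A list of 21 further genes associated with AT1 cells, of which 17 had a probe, moved less uniformly. Between D0 and D8, 10 rose and 2 fell, with a median of 0.96. The background was 9.91% of all probes and 20.9% of detected ones higher, and 8.10% of all probes lower. Sema3e, a semaphorin, rose by 4.47 and had gained 4.34 of it by D2, and the keratin Krt7 rose by 3.08. Cryab, a small heat shock protein, rose by 3.17 and Igfbp2, which binds insulin-like growth factors and marks mature AT1 cells, by 2.86. Igfbp2 stood at 0.79 at D2 (limma adjusted p = 0.489), which did not pass the test. Icam1 fell by 1.25 and Anxa1 by 1.16. Cav1, the caveolin of AT1 cells, was at 0.56 on the brighter of its 2 probes (limma adjusted p = 0.408). That probe was detected on 1 D0 array, no D2 array and 1 D8 array, so whether Cav1 rose was not resolved.

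Col4a3 belongs with the basement membrane genes, of which 7 of 13 listed had a probe. Of these, 5 were called higher at D8 (background 9.91% of all probes and 20.9% of detected ones) and none lower. Agrn rose by 3.14, Lamc1 by 2.75, Lamb3 by 2.05 and Col4a1 by 1.26. Col4a5, also called, was not detected at D0 or D8, and neither was Col4a4. The chains that assemble with the product of Col4a3 were therefore not measured above background at either day. Clic5 is known to act beside ezrin, radixin, moesin and podocalyxin. Of 8 such linker genes, against 20.9% of detected probes higher and 8.10% of all probes lower, 2 rose, Podxl by 2.50 and Rdx by 0.72, and 2 fell, Ezr by 2.29 and Cd44 by 1.64.

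All 10 measured AT2 markers of 12 listed were lower at D8 (background 8.10% lower), with a median of -6.33. Their median change was already -5.21 at D2, against -0.02 over all probes. Some markers of other cells were called too, against a background at D8 of 9.91% of all probes and 20.9% of detected ones higher. Of 7 macrophage and leukocyte markers 2 were higher at D8, Tyrobp and Aif1, with a summed raw signal of 3517 to 7513 at D0, 5330 to 10273 at D2, 12709 to 28122 at D4 and 8229 to 16035 at D8. Of 8 fibroblast and smooth muscle markers 2 were higher, Col1a1 by 4.59 and Col1a2 by 3.06, with sums of 3028 to 4164 at D0, 3269 to 6636 at D2, 7204 to 36417 at D4 and 9496 to 53425 at D8. Both sums were thus higher at D4 than at D2, the step in which Spock2 rose. At D4, 4 of the 7 macrophage and leukocyte markers were called higher than at D0 (background 10.9% of all probes). Pdpn is also made by fibroblasts, mesothelium and lymphatic endothelium. Mesothelial Msln was higher by 2.10 at D2 and by 3.26 at D8, while Wt1 was not detected at D0 or any later day, and the 3 lymphatic endothelial genes with a probe, Prox1, Lyve1 and Ccl21, were not detected on any array. Of 6 blood endothelial markers none was higher and Cldn5 was lower, and of 3 erythroid markers 2 were lower, with sums of 32004 to 49768 at D0 and 477 to 1170 at D8. Of 4 airway markers 3 were lower at D8, with changes of -4.01 for Scgb1a1, -6.35 for Scgb3a2 and -3.79 for Cyp2f4, with sums of 38327 to 45827 at D0 and 2469 to 5809 at D8. Their part in the changes of the AT1 markers was not tested. The summed raw signal of the 10 AT1 markers was 37530 to 51603 at D0, 97165 to 120573 at D2 and 99193 to 147939 at D8.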

How the data were processed

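Signals of 15 rat Illumina RatRef-12 arrays were used. The authors made the deposited raw intensity values in BeadStudio, averaging the beads of each probe, with a detection p-value for each. The log2 values the authors deposited had been normalized by VSN through LUMI in R 2.11.1. These served as an alternative. VSN was fitted anew to the raw intensities of all 22523 probes (trimming quantile 0.9, 7 rounds, 5 slices) and put on the log2 scale. In R 4.3.3, limma 3.58.1 fitted 1 mean per day to all 15 arrays, with p-values adjusted by Benjamini-Hochberg over all probes. Probes were named through the platform annotation with current RefSeq symbols. All 10 members are named in the text, with up to 4 genes per direction of each other list and the 3 genes most correlated with each member. Members and lists were chosen with earlier results of these data known. The pipeline was tested on simulated data. Alternatives were other normalizations, filters on dim probes, slide as a term or block, other thresholds and leaving out each array. The number of arrays limits the precision. Human arrays were not used here.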

Additional observations from a re-analysis of the deposited data

How the results depend on the processing

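No paired analysis was possible because the labels give no replicate numbers; replicates were numbered in accession order. Each marker had 1 probe, so a mean over probes gives the same values. The counts of markers higher at D8 than D0 (8) and at D2 than D0 (7) stayed within 7 to 8 and 6 to 7 over the other settings, and both were unchanged when any 1 array was left out. The count higher from D2 to D8, 2 with VSN, was 4 with the authors' values, with quantile normalization, with slide as a random block and, chosen after seeing the data, with undetected signals raised to the lowest detected. From D2 to D4 the count of 2 became 4 with quantile normalization and 1 when only the days compared were fitted or at an adjusted p of 0.01, and it ranged from 1 to 2 when 1 array was left out. The count of markers with a larger first than later change, 4, became 2 when only the days compared were fitted and 2 at an adjusted p of 0.01. It was 6 with slide group as a term, 5 with neqc, with either filter on dim probes, with slide as a random block and with the trended, robust prior, and 3 with the authors' values and on slide 1 alone, and it ranged from 2 to 4 when 1 array was left out; the causes were not tested. Over single markers, leaving out an array left 712 results with the same call or a midpoint within its standard error. It lost 8 calls, those of Col4a3 and Ager named above. The other settings left 563 results the same in this sense, lost 14 calls, gained 17 and moved 18 midpoint days by more than their standard error. No call reversed. The median change of all probes moved by less than 0.1 under any scaling. Dim signals limit Akap5 at D0, Col4a3 at D0 and Rtkn2 on all days. Pdpn came near the top of the signal range, and its effect was not tested.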

Other observations

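Caveolae are flask-shaped pits that are abundant in AT1 cells. Of 7 caveolar genes 3 were higher at D8 than at D0 (background 9.91%) and none lower. Cavin3 was higher by 3.29 (SE 0.29), Ehd2 by 2.81 (SE 0.22) and Cav2 by 2.14 (SE 0.31), all past the adjusted limma test. Cavin3 and Ehd2 had gained 4.39 and 2.69 by D2, as most AT1 markers had, while Cav2 was at 0.86 at D2 (limma adjusted p = 0.0762) and gained 1.28 after it (adjusted p = 0.0469). Pacsin2 was lower at D2, by 0.75 (adjusted p = 0.0192), and not called at D8.

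YAP and TAZ are cofactors that act through TEAD factors in flattening alveolar cells. Of 8 measured genes of this list (11 listed), 4 were higher at D8 (background 9.91% of all probes and 20.9% of detected ones) and none lower. Their target Ankrd1 was higher by 2.55 (SE 0.53), the kinase gene Lats2 by 0.94 (SE 0.23), Tead3 by 0.92 (SE 0.19) and the target Ccn2 by 0.60 (SE 0.18). A further target, Ccn1, was not called, at -0.50 (SE 0.82, limma adjusted p = 0.794). Wwtr1, which encodes TAZ, was higher at D2, by 1.30 (limma adjusted p = 0.0354), and stood at 0.58 at D8 (adjusted p = 0.414). Yap1 was not detected on any array, so its level was not measured.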
